A study of Mus musculus with 19 samples.

Results

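Of 19 mouse mammary tumours, 10 held skeletal muscle transcripts above a set limit and 9 did not. The 10 tumours were chosen by the level of Acta1, which encodes the actin of the skeletal muscle thin filament: a tumour belongs to the muscle-positive side where Acta1 reached 20 CPM (expected counts scaled so that every column has the same total), and to the muscle-negative side where it did not. Acta1 is therefore not a finding here, and the levels of other muscle genes that follow it are given as a description. The question was which genes besides those of muscle, such as nerve, vessel, fat, immune and tumour genes, go with the muscle content.

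RNA was sequenced from whole Met1 tumours. Met1 is a transplantable mouse mammary tumour line, and all host mice received extracellular vesicles shed by neutrophils. The neutrophils had been exposed to the solvent DMSO (9 tumours) or to 27-hydroxycholesterol (27HC), an oxidised form of cholesterol that acts on nuclear receptors (10 tumours). The sources used here give no strain, sex, age, implantation site or vesicle dose, and no tumour of a mouse without vesicles is among these samples. The labels do not say that each tumour came from a separate mouse, so the p-values measure the spread between these samples. The muscle-positive side held 4 of 9 DMSO tumours (1_1, 1_2, 1_4 and 1_5) and 6 of 10 27HC tumours (1_2, 1_3, 1_5, 2_1, 2_3 and 2_4). The muscle-negative side held DMSO tumours 1_3, 2_1, 2_2, 2_3 and 2_4 and 27HC tumours 1_1, 1_4, 2_2 and 2_5. Column totals ran from 28139419 to 41179056 expected counts. Among markers of mammary epithelium, Epcam ranged from 0.262 to 13.2 CPM and Krt8 from 0.172 to 9.54 CPM over the 19 tumours, whereas Krt18 ranged from 36.0 to 132 CPM. In 5 libraries (DMSO 1_5 and 2_3, 27HC 1_3, 1_5 and 2_3) the count-weighted transcript GC content was 49.0% to 49.3%, below every other library, and 4 of these 5 were muscle-positive.

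Adult skeletal muscle fibres are multinucleate cells filled with sarcomeres, in which myosin thick filaments pull on actin thin filaments when the sarcoplasmic reticulum releases calcium. Fibres differ in the myosin heavy chain they use, from slow Myh7 to fast Myh2, Myh1 and Myh4, and forming or regenerating fibres pass through embryonic and neonatal chains. Muscle tissue also holds motor nerves wrapped by Schwann cells, dense capillaries, connective tissue and fat, which is why genes of those cells were followed beside the fibre genes.

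The promoters of the 3 marker genes are shown because the tumours were divided by Acta1 and the other markers followed it. Each is the 250 bases before the RefSeq start on GRCm38.p6, read 5′ to 3′ along the gene: Acta1 at chr8:123894776-123895025 on the minus strand, Ckm at chr7:19410844-19411093 on the plus strand and Myh4 at chr11:67237562-67237811 on the plus strand. Capitals mark the E-box CAGCTG, the core bound by myogenic factors of the MyoD family, and the CArG box, the core bound by serum response factor.
Acta1 promoter: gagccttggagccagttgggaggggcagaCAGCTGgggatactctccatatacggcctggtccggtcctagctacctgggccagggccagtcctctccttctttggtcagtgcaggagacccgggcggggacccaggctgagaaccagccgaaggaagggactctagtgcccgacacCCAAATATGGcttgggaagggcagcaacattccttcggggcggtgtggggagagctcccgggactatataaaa
Ckm promoter: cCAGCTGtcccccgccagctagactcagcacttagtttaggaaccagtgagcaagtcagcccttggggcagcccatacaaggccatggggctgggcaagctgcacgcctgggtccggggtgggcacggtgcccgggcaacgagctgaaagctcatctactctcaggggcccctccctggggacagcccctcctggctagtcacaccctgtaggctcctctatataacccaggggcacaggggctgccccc
Myh4 promoter: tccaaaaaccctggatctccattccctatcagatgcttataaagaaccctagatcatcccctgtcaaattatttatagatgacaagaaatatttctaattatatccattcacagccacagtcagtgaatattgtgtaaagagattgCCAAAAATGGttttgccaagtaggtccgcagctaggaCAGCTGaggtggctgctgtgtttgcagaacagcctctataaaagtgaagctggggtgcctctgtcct
The E-box began at position -221 from the start in Acta1, -249 in Ckm and -67 in Myh4. A CArG box began at -73 in Acta1 and -104 in Myh4, and the Ckm window held none. Both motifs read the same on both strands as searched, and they do not overlap each other in these windows. CAGCTG stood in 13% of all 32851 RefSeq promoter windows of this length and in at least 1 window of 14.7% of 27025 genes. Of the 84 genes described next as higher, 67 matched a window by symbol, and 31 of them (46.3%) held it. The CArG box stood in 1.62% of genes and in 3 of these 67 (4.48%). The 84 genes were called by the Acta1 split and 49 of them are in the muscle lists, so nothing is read from these shares. These matches describe letters in a window, not sites bound by a factor.

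Acta1 per tumour, in CPM of the column total, was 36.0, 92.6, 387 and 406 in the muscle-positive DMSO tumours 1_5, 1_1, 1_4 and 1_2. In the muscle-positive 27HC tumours 2_1, 2_4, 2_3, 1_2, 1_3 and 1_5 it was 39.7, 73.6, 229, 411, 959 and 1112. The muscle-negative DMSO tumours 2_2, 2_1, 2_3, 1_3 and 2_4 had 0.608, 0.732, 0.767, 2.28 and 8.51, and the 27HC tumours 2_5, 1_4, 1_1 and 2_2 had 0.749, 1.04, 1.55 and 14.0. Muscle content was thus a graded quantity, and the values nearest the limit were 14.0 and 36.0 CPM. Creatine kinase gene Ckm followed the same split, at 17.6 to 536 CPM against 0.173 to 6.21 CPM, and the fast myosin gene Myh4 ran from 24.4 to 895 CPM against 0.0618 to 6.69 CPM. The sum of the 118 muscle genes listed for this work was 0.197% to 1.07% of all counts in muscle-positive tumours and 0.152% to 0.208% in the others.

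**Figure D1:**
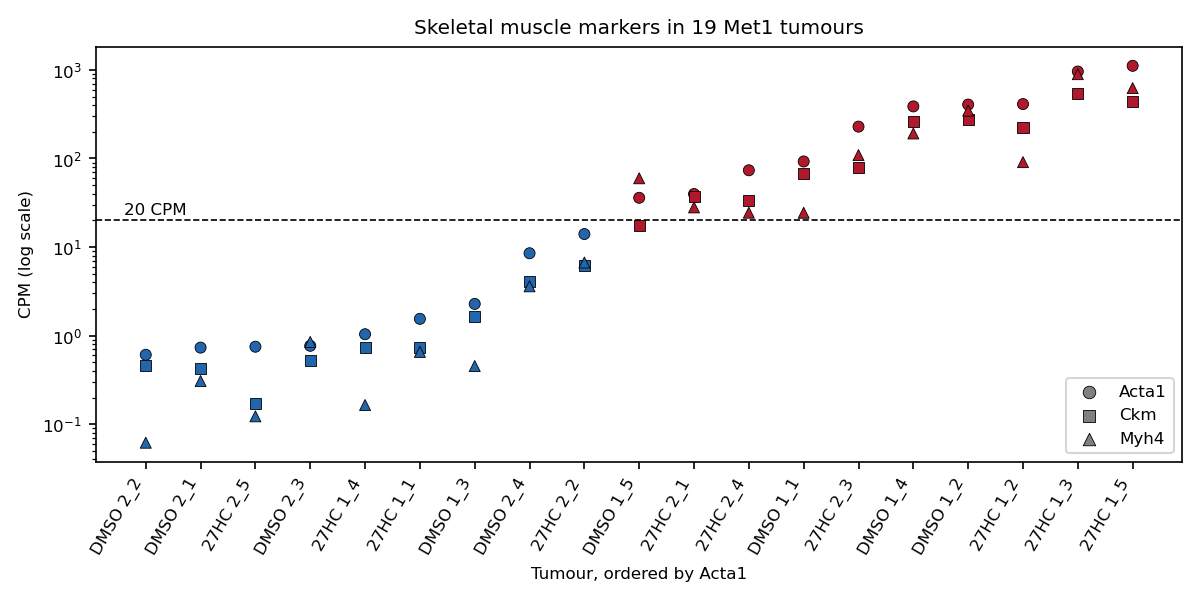
Acta1, Ckm and Myh4 in CPM of the column total (log axis) for each of the 19 tumours, ordered by Acta1; red points are the 10 muscle-positive and blue points the 9 muscle-negative tumours, and the dashed line is the 20 CPM limit. Acta1 runs without a wide gap from 0.608 to 1112 CPM, and Ckm and Myh4 rise along the same order.

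Muscle content did not differ detectably between the labelled treatments. The share of muscle-positive tumours was 0.6 with 27HC and 0.444 with DMSO (two-sided exact permutation test over 92378 regroupings, p = 0.656). Log2 Acta1 CPM was 5.21 ± 4.05 (SD, n = 10) with 27HC and 3.52 ± 3.85 (SD, n = 9) with DMSO (exact permutation p = 0.357). The first of the numbers in each title is 1 or 2 and has no stated meaning: 7 of 10 tumours with a 1 and 3 of 9 with a 2 were muscle-positive (exact permutation p = 0.179), and log2 Acta1 was 5.95 ± 3.97 (SD, n = 10) against 2.70 ± 3.31 (SD, n = 9; exact permutation p = 0.0719). Library GC content was 50.7 ± 1.35% (SD, n = 10) in muscle-positive and 51.1 ± 0.794% (SD, n = 9) in muscle-negative tumours (exact permutation p = 0.453). The 8 tests of this kind had adjusted p-values from 0.575 to 0.850.

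Over all genes, 84 rose with muscle content and 0 fell (edgeR's quasi-likelihood test with treatment as covariate, Benjamini-Hochberg adjusted p under 0.05). That is 0.537% of 15629 genes tested higher and 0% lower; 244 genes had an unadjusted p under 0.05, and 16 of these were lower. The 5 muscle lists supplied 49 of the 84, out of 87 members tested, and since the tumours were split by one of these genes nothing is read from that share. The other 35 are 0.225% of the 15542 tested genes outside the muscle lists. The 426 tested genes that belonged only to the 26 other lists of nerve, vessel, fat, immune, tumour and metabolic genes supplied 0 (DESeq2 gave 2, Mustn1 and Synpo2). Beside a background share of 0.225% a count of 0 is no result about these genes, and the intervals given with each list show how precisely its members were measured. Of all 15629 genes tested, 12841 (82.2%) had intervals within a doubling or halving, the background for such counts below. Fold changes below are log2, muscle-positive over muscle-negative, with standard errors (SE), and levels are CPM on TMM-normalized library sizes over 10 and 9 tumours. The medians of the 26 other lists are small, and 16 of them changed sign when the 5 low GC libraries were left out, so none is given as a direction. In whole tumours, more cells of a type and more RNA per cell cannot be told apart.

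**Figure D2:**
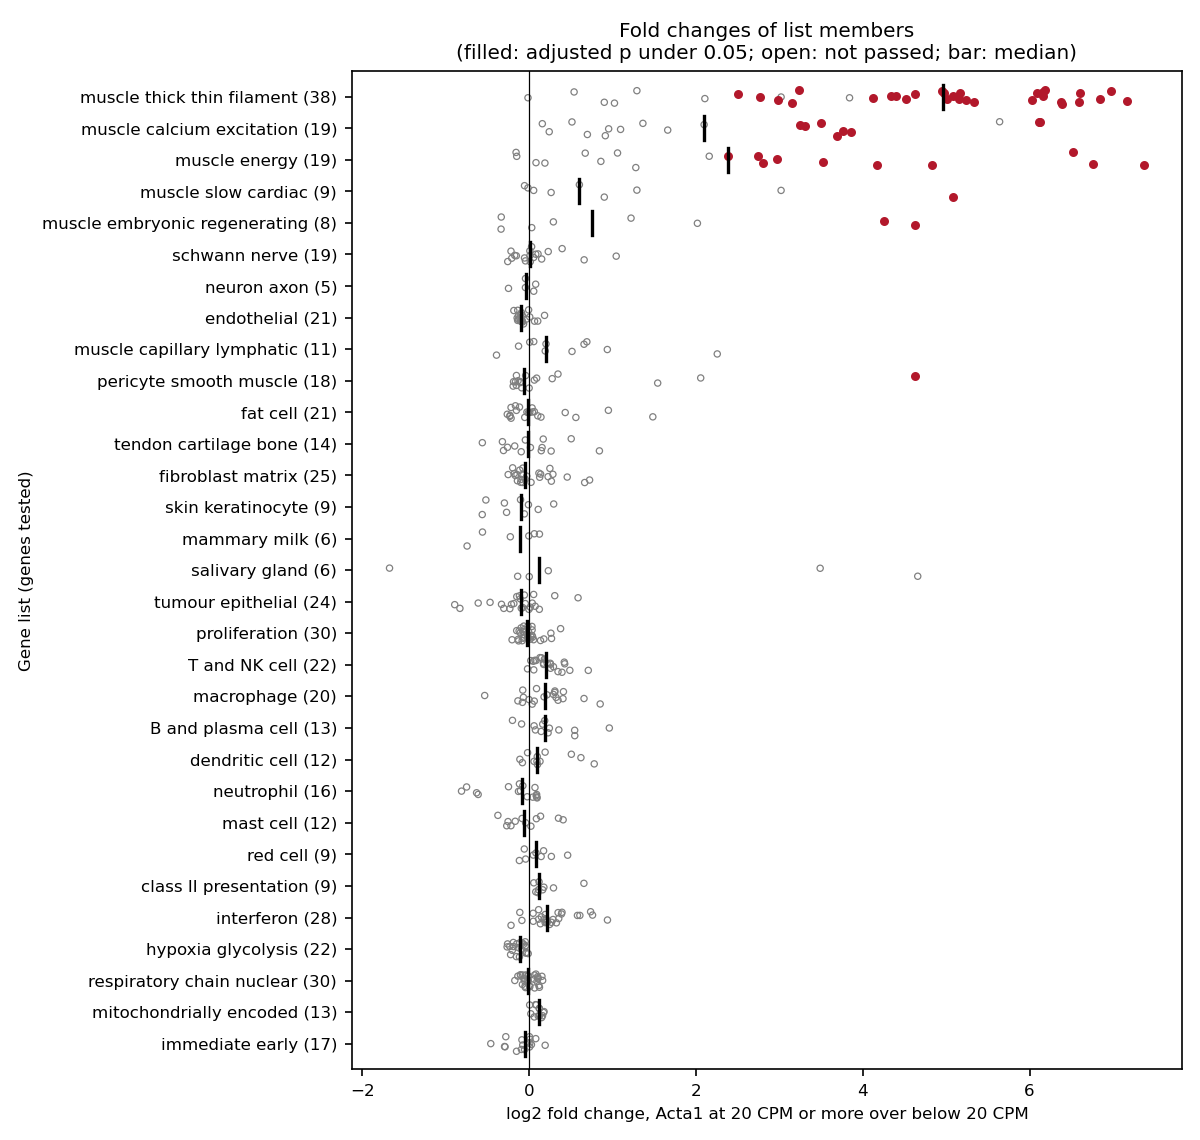
Log2 fold change, muscle-positive over muscle-negative tumours, of every tested member of the 31 gene lists, 1 row per list with the number tested; filled points passed an adjusted p of 0.05, open points did not, and the bar is the list's median. Filled points lie in the 5 muscle lists, plus Des, which the pericyte list shares with a muscle list, while the medians of the 26 other lists lie between -0.11 and 0.21.

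Thick and thin filament genes moved most. Of 38 tested members 30 rose, and the list's median was 4.97, against 0.02 over all genes. Acta1 (ENSMUSG00000031972, GRCm38 chromosome 8, 123891769 to 123894751) differed by 6.60 (SE 0.90), the value the split itself fixed. Myh4 (ENSMUSG00000057003, chromosome 11, 67238029 to 67260446) had 27.4, 101 and 723 CPM as lowest, median and highest muscle-positive values and 0.0681, 0.573 and 7.05 in the others, a difference of 7.17 (SE 1.02). Myh2, the chain of fast oxidative fibres, differed by 6.97 (SE 1.11), and its 0.937 to 235 CPM did not overlap 0.0253 to 0.690 CPM. Titin (Ttn), the molecular spring of the sarcomere, had 7.996 to 644 CPM against 0.127 to 3.09 CPM. Actn3, the alpha-actinin of fast fibres, had 3.53 to 148 CPM against 0.307 to 1.52 CPM. Myot and Xirp2, proteins of the Z-disc region, were at 0 in 2 and 4 of 9 muscle-negative tumours, and their fitted differences of 6.60 (SE 1.06) and 6.85 (SE 1.27) therefore depend on the prior count. Nebulin (Neb), the thin-filament ruler, missed the threshold with 3.84 (SE 1.11, adjusted p = 0.343): 7 of 10 muscle-positive tumours exceeded every muscle-negative one, and 27HC 1_5 reached 277 CPM.

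Genes of calcium handling and excitation followed in smaller number, with 8 of 19 tested members higher and a median of 2.10. Atp2a1, the calcium pump of fast fibres, had 15.01 to 515 CPM against 0.528 to 6.22 CPM, without overlap, and differed by 6.12 (SE 0.73, adjusted p = 0.000349). The calcium buffer parvalbumin (Pvalb) had 1.68 to 60.4 CPM against 0 to 0.811 CPM. The release channel gene Ryr1 differed by 3.25 (SE 0.53) and the calcium store gene Casq1 by 3.30 (SE 0.54). Scn4a, the muscle sodium channel, differed by 3.86 (SE 0.75), a call that was lost without DMSO 1_4 (3.67, adjusted p = 0.0513). The calcium-binding Hrc of the sarcoplasmic reticulum differed by 3.76 (SE 0.65). The potassium channel gene Kcnj11 differed by 3.69 (SE 0.81, adjusted p = 0.0399), and this call was lost in 13 of the 19 fits that left out 1 tumour, with adjusted p up to 0.131. Trdn, which anchors the release complex, missed the threshold at 5.64 (SE 1.32, adjusted p = 0.0648) and passed it in 3 of the 19 (without DMSO 2_4, 6.86, adjusted p = 0.0183).

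Energy genes gave 10 of 19 higher with a median of 2.38. Mitochondrial creatine kinase Ckmt2 had 0.338 to 12.8 CPM in muscle-positive tumours and was at 0 in 5 of the 9 others, whose highest value was 0.0682 CPM. Ckm (ENSMUSG00000030399, chromosome 7, 19404776 to 19422841) differed by 6.76 (SE 0.86). Myoglobin (Mb), the oxygen store, had 1.24 to 101 CPM against 0.386 to 1.24 CPM, and 9 of 10 muscle-positive tumours lay above all others. Art1, a mono-ADP-ribosyltransferase of muscle surfaces, differed by 6.52 (SE 0.79), and the muscle glycogen phosphorylase gene Pygm by 4.17 (SE 0.61). Ampd1, the muscle AMP deaminase, differed by 3.52 (SE 0.75, adjusted p = 0.0298), a call lost in 11 of the 19 fits that left out 1 tumour. The nuclear genes of the respiratory chain, which every cell uses, gave 0 of 30 higher with a median of -0.01, and all 30 intervals lay within a doubling or halving. Ndufa1 and Ndufa5, both parts of complex I, differed by 0.16 (SE 0.15) and 0.15 (SE 0.18). The 13 mitochondrially encoded genes gave 0 calls with a median of 0.12, among them mt-Nd5 at 0.17 (SE 0.32) and mt-Nd4l at 0.16 (SE 0.33).

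Slow and cardiac isoforms gave 1 of 9. Myh7, the slow heavy chain, had 0.0653, 3.96 and 28.2 CPM as lowest, median and highest muscle-positive values against 0 to 0.579 CPM, a difference of 5.08 (SE 1.05, adjusted p = 0.0217), and the call was lost in 5 of the 19 fits that left out 1 tumour, with adjusted p up to 0.113. Slow troponin genes did not pass: Tnnt1 differed by 3.02 (SE 0.72, adjusted p = 0.0768), Tnni1 by 1.29 (SE 0.51) and Tnnc1 by 0.90 (SE 0.27, adjusted p = 0.471). Tnnt1 passed in 4 of the 19 such fits (without 27HC 2_4, 3.12, adjusted p = 0.0324). The cardiac genes Ryr2 and Tnni3 differed by 0.60 (SE 0.33) and 0.26 (SE 0.56). Embryonic and regeneration genes gave 2 of 8: the intermediate filament gene Des, with 10.3 to 544 CPM against 2.52 to 10.6 CPM and a difference of 4.63 (SE 0.67), and the acetylcholine receptor gene Chrna1, with 0.545 to 18.4 CPM against 0.0265 to 0.465 CPM and 4.26 (SE 0.73). The receptor subunit Chrnb1 (0.29, SE 0.23) and the adhesion gene Ncam1 (0.03, SE 0.15) did not pass, and 15 of the 23 listed, Myog, Myod1 and Pax7 among them, were too low to be tested.

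Embryonic myosin genes separated 4 of the 10 muscle-positive tumours from the rest, all of them 27HC tumours; this pattern was noticed in the values and was not tested as a group difference. Myh3, the embryonic heavy chain, had 3.90, 7.69, 3.84 and 5.84 CPM in 27HC 1_2, 1_3, 1_5 and 2_3. It had 0.121 to 0.567 CPM in the other 6 muscle-positive tumours and 0.164 to 0.549 CPM in the muscle-negative ones, and those ranges overlapped. Myl4, the embryonic and atrial light chain, had 10.7, 7.05, 32.1 and 7.08 CPM in the same 4 tumours and 0.728 to 2.26 CPM in the other 6. The neonatal chain gene Myh8 had 1.95, 7.36, 17.9 and 5.29 CPM against 0.183 to 0.969 CPM, and Myog, a transcription factor of muscle differentiation, had 2.88, 2.13, 8.66 and 1.5 CPM against 0 to 0.345 CPM. Actc1, Chrng, Chrnd, Mymk, Tnni1 and Tnnt1 were among further embryonic and slow genes that divided the tumours in this way. Actc1 had 1.299, 1.847, 1.694 and 1.348 CPM in the 4 tumours and at most 0.344 CPM in the other 6. Tnnt1 had 3.674, 10.718, 21.316 and 9.102 CPM against at most 1.877 CPM. For Mymk the margin was small, with 0.58 CPM in 27HC 2_3 and a highest muscle-negative value of 0.555 CPM. Others did not divide them, Myod1, Pax7, Cdh15 and Tnnt2 among them. Myod1, a myogenic factor, had 0.83, 0.53, 4.01 and 0.47 CPM in the 4 tumours and 0.813 CPM in DMSO 1_4. Pax7, the satellite cell factor, had 0.099, 0.29, 0.506 and 0.232 CPM beside 0.125 CPM in DMSO 1_5. Cdh15, the muscle cadherin, had 50.6, 5.82, 20.1 and 11.9 CPM, within or around the 6.37 to 34.8 CPM of the other 6, and cardiac troponin T (Tnnt2) had 16.8, 24.2, 21.1 and 21.1 CPM beside 10.9 to 27.7 CPM. Tumours of like Acta1 differed in Myh3: DMSO 1_2 and 1_4 had Acta1 at 406 and 387 CPM and Myh3 at 0.567 and 0.281 CPM, and 27HC 1_2 had 411 and 3.90 CPM. Of the 4 tumours, 3 (27HC 1_3, 1_5 and 2_3) are among the libraries of low GC content, whose part in this was not tested. The difference in the muscle contrast between 27HC and DMSO was 3.71 for Myh3 (SE 1.16) and 2.56 for Myl4 (SE 0.87), with an edgeR adjusted p of 0.934 for each. Over all genes 0 passed this interaction test, 0% of 15629.

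**Figure D3:**
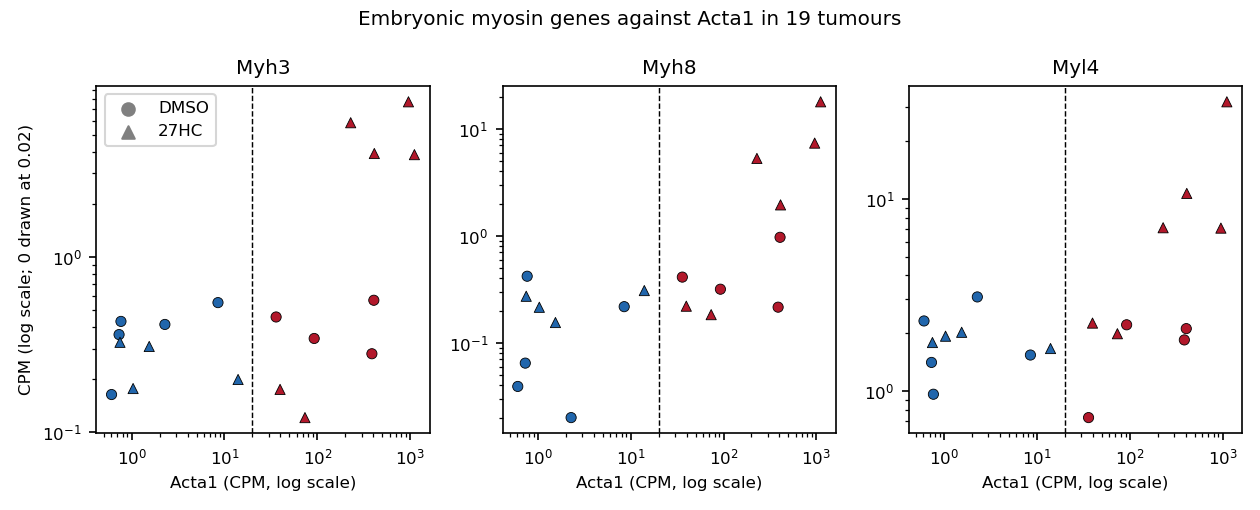
Myh3, Myh8 and Myl4 in TMM-normalized CPM against Acta1 in CPM of the column total, both on log axes, in 19 tumours; triangles are 27HC and circles DMSO, red is muscle-positive and blue muscle-negative, and the dashed line marks 20 CPM. In each panel 4 27HC tumours lie above all others, Myh3 at 3.84 CPM or more, while every DMSO tumour has Myh3 at 0.567 CPM or less.

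The make-up of adult myosin heavy chain also differed within the muscle-positive tumours by treatment label. Per transcript length, Myh4 made up 75.05%, 75.4%, 77.0% and 79.6% of the sum of Myh4, Myh1, Myh2 and Myh7 in DMSO 1_2, 1_4, 1_1 and 1_5. It made up 30.2%, 47.4%, 49.7%, 52.3%, 62.3% and 65.8% in 27HC 2_3, 1_3, 1_2, 1_5, 2_4 and 2_1. The groups did not overlap, with 76.8 ± 2.07% (SD, n = 4) against 51.3 ± 12.6% (SD, n = 6; two-sided exact permutation p = 0.00952, adjusted over 5 values p = 0.0238). Myh1, the chain of intermediate fast fibres, took 14.3% to 17.6% in DMSO and 22.7% to 47.5% in 27HC tumours (exact permutation p = 0.00952, adjusted p = 0.0238). Myh2 took 2.35% to 8.22% against 2.10% to 17.9% (exact permutation p = 0.114) and Myh7 0.405% to 2.17% against 0.143% to 4.49% (exact permutation p = 0.171), both with overlap. The ratio of Ckm to Acta1, the remaining value of the 5, gave an exact permutation p of 0.390 (0.538 ± 0.209 with 27HC, SD, n = 6, and 0.640 ± 0.104 with DMSO, SD, n = 4). The shares are parts of the same sum, so a lower share of Myh4 means a higher share of the other chains together. The p-values of Myh4 and Myh1 are therefore not separate results, and the adjusted values count both. These values were chosen for a test after the shares had been seen. Between 1108 and 64518 expected counts stood behind each tumour's shares, for a Wilson 95% interval of at most 2.85 percentage points to either side that covers counting error only.

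The smaller sets that follow are parts of the same muscle-positive tumours, in which the shares of Myh4 and Myh1 did not overlap. For these 2 genes the lack of overlap and the smallest possible p were thus fixed in advance, and they repeat nothing. Adjusted p-values in the smaller sets count these 2 genes among the 5 values. Nothing is therefore read from the adjusted p-values of Myh2 or of the ratio of Ckm to Acta1 there. Among the 7 muscle-positive tumours whose title begins with 1, Myh4 was 76.8 ± 2.07% (SD, n = 4) in DMSO and 49.8 ± 2.42% (SD, n = 3) in 27HC (exact permutation p = 0.0286, the smallest this size allows). In these 7 tumours Myh1 was 34.4 ± 3.91% in 27HC and 16.4 ± 1.52% in DMSO, and Myh2 was 13.9 ± 2.50% and 5.91 ± 2.75%, also without overlap (SD, n = 3 and 4; exact permutation p = 0.0286 each, adjusted p = 0.0476). Myh7 gave an exact permutation p of 0.171 and the ratio of Ckm to Acta1 one of 0.114. Among the 8 tumours with Acta1 above 50 CPM, Myh4 and Myh1 could not overlap (exact permutation p = 0.0179 each, the smallest this size allows, adjusted p = 0.0446). There Myh2 gave an exact permutation p of 0.25 and Myh7 of 0.446. The ratio of Ckm to Acta1 was 0.460 ± 0.0955 in 27HC and 0.690 ± 0.0307 in DMSO there (SD, n = 5 and 3; exact permutation p = 0.0357, adjusted p = 0.0595). No DMSO tumour with a first number of 2 was muscle-positive, so that class gave no comparison. Without the low GC libraries 3 tumours a group were left, at 75.8 ± 1.011% and 59.3 ± 8.46% (SD, n = 3 each; exact permutation p = 0.1, the smallest possible), Myh1 also gave 0.1, and Myh2, Myh7 and the ratio gave exact permutation p-values of 1, 0.7 and 0.8. Myh1, Myh2 and Myh4 are related genes lying side by side on chromosome 11, and the estimated counts divide any reads they share among them by a model. In the muscle-negative tumours only 38.7 to 415 counts of the 4 chains were found, and Myh1 held the largest share in 8 of the 9.

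**Figure D4:**
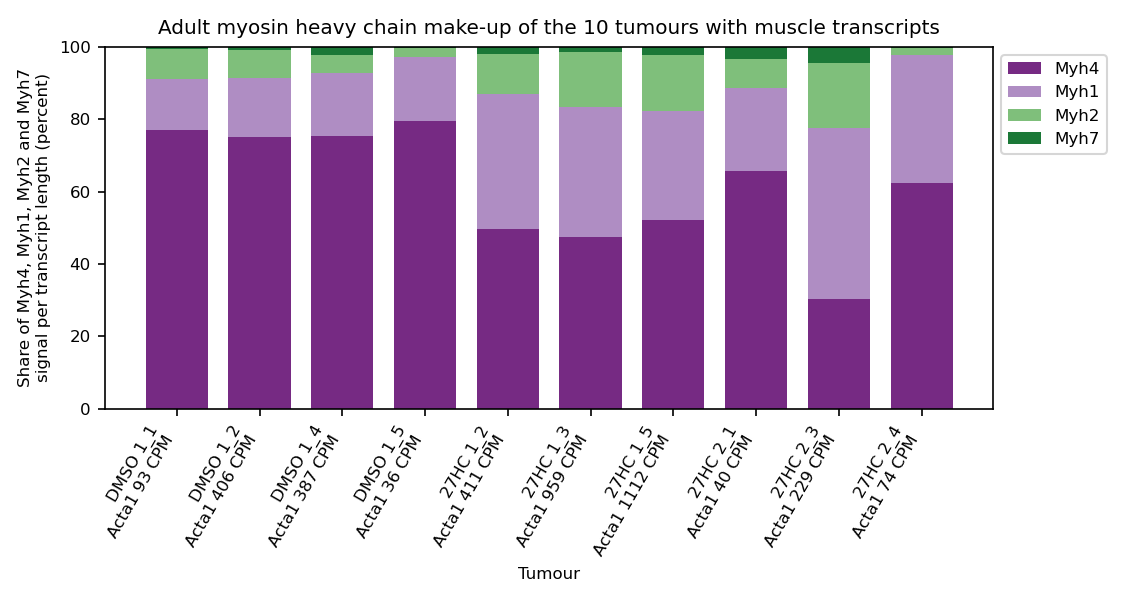
Shares of Myh4, Myh1, Myh2 and Myh7 in their summed signal per transcript length, in percent, in each of the 10 muscle-positive tumours, with Acta1 in CPM under each name. Myh4 takes 75.05% or more in the 4 DMSO tumours and 65.8% or less in the 6 27HC tumours.

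Outside the lists, 35 genes rose. The filter on low counts asked for about 10 counts in at least 9 tumours, and for 7 of the 35 no muscle-negative tumour reached that level, so these entered only through the muscle-positive tumours and had to differ: Ano5, Smtnl1, Crhr2, Apobec2, 3425401B19Rik, 1110002E22Rik and a row without a symbol. For 20 some and for 8 all of the 9 muscle-negative tumours reached it. Over all genes tested, 12 entered in that way, 5 of them in the muscle lists, and all 12 are among the 84 called. The count of 35 is therefore a description, and a floor of 1 log2 CPM on the mean left 6. By roles assigned after the calls were seen, 20 encode known parts or regulators of striated muscle. Examples are Nrap, a scaffold of myofibril assembly (2.61 to 86.4 CPM against 0.320 to 1.32 CPM, 4.27, SE 0.71), Pdlim3 of the Z-disc (4.13, SE 0.65) and the small heat shock gene Hspb7 (3.13, SE 0.58). Ankrd23, a titin-binding ankyrin repeat protein, differed by 2.47 (SE 0.52, adjusted p = 0.0236), with the call lost in 9 of the 19 fits that left out 1 tumour. Ano5, a membrane protein whose loss causes muscular dystrophy, was at 0 in 7 of 9 muscle-negative tumours and was at 0 in 1 muscle-positive tumour, with a median of 0.610 CPM over the 10. A further 2 rows without a symbol held exactly the values of Pygm and Apobec2 and add nothing to them. Without DMSO 1_2 the count of 35 became 21.

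A striated muscle role was not assigned to the remaining 13. This does not place them outside muscle, and whether muscle fibres in these tumours express them was not tested. Eef1a2 (ENSMUSG00000016349, chromosome 2, 181147653 to 181157014), the elongation factor isoform used by adult muscle and neurons, had 2.42, 15.7 and 97.8 CPM as lowest, median and highest muscle-positive values against 0.248, 0.523 and 1.502 CPM. Its groups did not overlap, and it differed by 5.16 (SE 0.65, adjusted p = 0.000357). Crhr2, a receptor for urocortins, had 0.280 to 4.44 CPM against 0 to 0.133 CPM. Ndrg2, a stress-responsive gene of muscle and glia, had 3.24 to 64.1 CPM against 1.19 to 6.11 CPM and differed by 2.91 (SE 0.55), and 7 of 10 muscle-positive tumours lay above all others. The deubiquitinase gene Usp13 differed by 2.85 (SE 0.48) and the phosphatase gene Dusp13 by 3.02 (SE 0.56), and Shisa2 by 2.88 (SE 0.58). Sbk2 differed by 1.49 (SE 0.30), a call lost without DMSO 1_2 (1.37, adjusted p = 0.0687). Wipf3, at 1.74 (SE 0.39), and Fxyd6, a subunit of the sodium pump at 0.93 (SE 0.21, adjusted p = 0.0400), each lost the call in 15 of those 19 fits; Rtn2, at 1.68 (SE 0.38), lost it in 13 and Coq8a, of coenzyme Q synthesis, at 1.71 (SE 0.36), in 8. The other 2 are the gene models 3425401B19Rik and 1110002E22Rik. By another count, every muscle-positive tumour exceeded every muscle-negative one for 45 genes, 0.288% of those tested. Of these, 30 are in the muscle lists, among them Acta1, for which the split fixed it. The 45 also hold Smtnl1, Crhr2, Apobec2, 3425401B19Rik and 1110002E22Rik, which entered only through the muscle-positive tumours. They further hold the 2 rows that repeat Pygm and Apobec2. This count is therefore a description as well.

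Nerve genes gave 0 calls. Of 19 tested Schwann cell genes 0 passed, the median was 0.01, and 14 intervals (73.7%, against 82.2% over all genes) lay within a doubling or halving. Mag, a myelin-associated glycoprotein, came nearest by unadjusted p with 0.40 (SE 0.22), at 1.61 to 5.11 CPM against 1.24 to 3.18 CPM. Mal, a myelin lipid-raft protein, differed by 1.04 (SE 0.74). Of 5 axon genes 0 passed, among them Prph, an intermediate filament of peripheral axons, at -0.25 (SE 0.35), and the neuronal tubulin gene Tubb3 at 0.06 (SE 0.19).

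Vessel genes gave 0 calls outside the muscle lists. All 21 endothelial genes had intervals within a doubling or halving, 0 passed, and the median was -0.09, or 0.09 without the 5 low GC libraries. Pecam1, the junction protein of endothelium, had 35.3 to 65.0 CPM against 40.5 to 61.7 CPM (-0.08, SE 0.13). The VEGF receptor gene Flt1 differed by -0.14 (SE 0.16) and the matrix gene Mmrn2 by -0.14 (SE 0.19). Of 11 genes of muscle capillaries and lymphatics 0 passed with a median of 0.20, which was -0.09 without the low GC libraries. Ccl21a, a lymphatic chemokine, had a median of 5.61 CPM against 0.280 CPM and differed by 2.26 (SE 1.14), but turned to -0.64 without those libraries. Lyve1, a hyaluronan receptor of lymphatics and some macrophages, differed by 0.66 (SE 0.47). Among 18 pericyte and smooth muscle genes the only call was Des, which striated muscle uses as well. Nearest to it, and named after their values were seen, were Mustn1, a small nuclear protein of muscle and bone, at 2.06 (SE 0.47, adjusted p = 0.0524) and Synpo2, an actin-bundling protein, at 1.54 (SE 0.43, adjusted p = 0.256). Mustn1 passed in 5 of the 19 fits that left out 1 tumour (without 27HC 2_4, adjusted p = 0.0233), and 9 of 10 muscle-positive tumours exceeded its highest muscle-negative value.

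Fat, tendon and fibroblast genes gave 0 calls. Of 21 fat cell genes the median was -0.01. Car3, a carbonic anhydrase abundant in fat and in slow muscle, had 6.91 to 188 CPM against 3.29 to 40.6 CPM (1.48, SE 0.69, unadjusted p = 0.0439). The adipocyte hormone gene Adipoq differed by -0.22 (SE 0.59), and the adrenergic receptor gene Adrb3 by 0.56 (SE 0.28). Of 14 tendon, cartilage and bone genes the median was -0.01. Thbs4, a matrix protein of tendon and muscle attachment, had 4.12, 20.8 and 53.3 CPM against 5.88, 10.6 and 18.6 CPM (0.84, SE 0.38), with 5 of 10 muscle-positive tumours above all others, and the cartilage gene Cilp differed by 0.50 (SE 0.29). Of 25 fibroblast genes the median was -0.05. Smoc2, a calcium-binding matrix protein, had 3.42 to 17.1 CPM against 3.12 to 8.04 CPM (0.72, SE 0.25, adjusted p = 0.932), and passed with a 50 CPM limit on Acta1 and with Acta1 as a continuous term. Col14a1, a fibril-associated collagen, differed by 0.27 (SE 0.21).

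**Figure D5:**
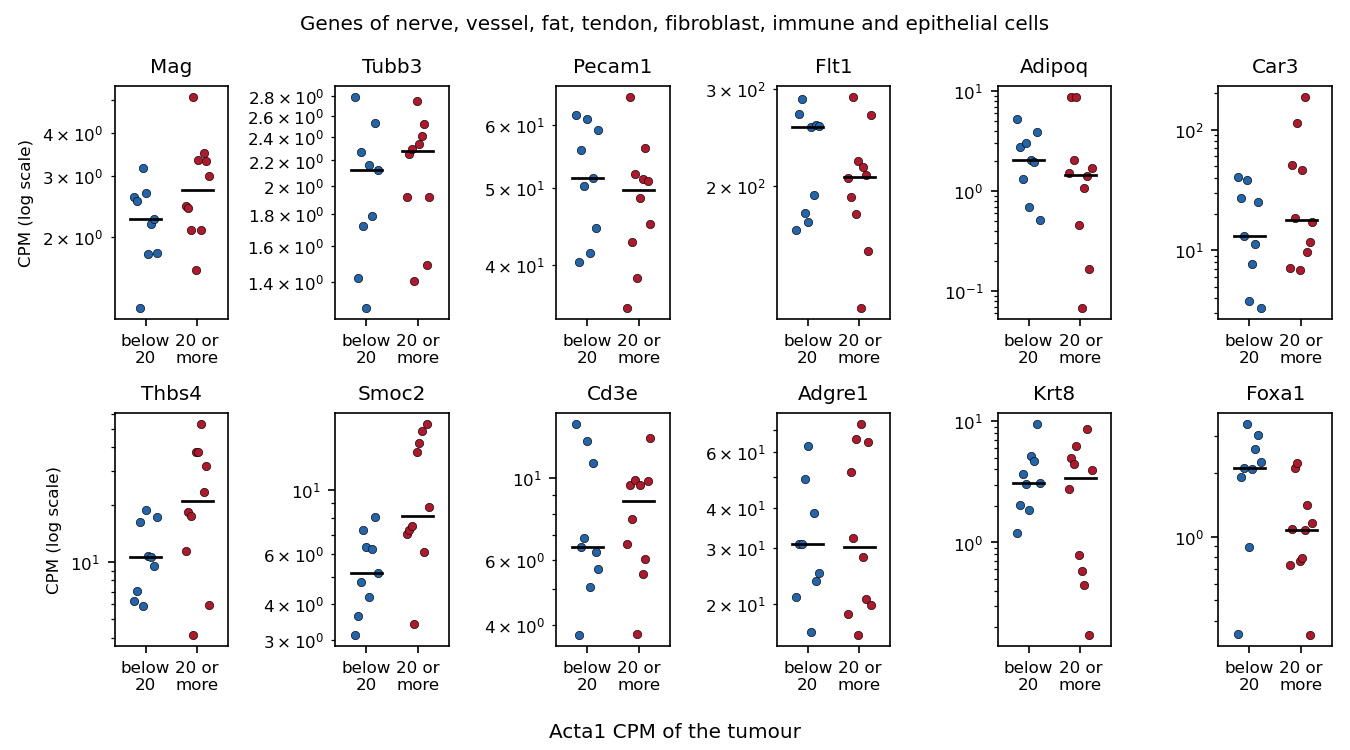
TMM-normalized CPM (log axes, not starting at 0) of 12 genes of nerve (Mag, Tubb3), vessel (Pecam1, Flt1), fat (Adipoq, Car3), tendon (Thbs4), fibroblast (Smoc2), immune (Cd3e, Adgre1) and epithelial cells (Krt8, Foxa1); each point is a tumour, blue with Acta1 below 20 CPM and red at 20 CPM or more, and bars are medians. The groups overlap in every panel, and Smoc2 and Thbs4 each have 5 of 10 muscle-positive tumours above the highest muscle-negative one.

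Immune genes gave 0 calls, while the medians of several lists lay above that of all genes. Of 22 T and NK cell genes 21 were above 0 with a median of 0.20, and of 28 interferon-response genes 25 were above 0 with a median of 0.21, against 55.0% above 0 over all genes. The median for 20 macrophage genes was 0.20 and for 13 B and plasma cell genes 0.19. These medians moved with the low GC libraries: without the 5 low GC libraries the medians were -0.04 for T and NK cells, -0.13 for interferon response, -0.13 for macrophages and -0.39 for B and plasma cells. By gene, the T cell receptor chain Cd3e differed by 0.07 (SE 0.26), Ifng by 0.71 (SE 0.42) and the T-box factor gene Eomes by 0.49 (SE 0.43). The interferon-induced GTPase genes Gbp3 and Irgm1 differed by 0.74 (SE 0.37) and 0.58 (SE 0.29). The macrophage gene Adgre1 had 15.99 to 73.5 CPM against 16.4 to 62.7 CPM (0.32, SE 0.32), and the monocyte receptor gene Ccr2 differed by 0.85 (SE 0.66).

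Jchain, the joining chain of antibodies, differed by 0.96 (SE 0.72) and the B cell gene Ms4a1 by 0.55 (SE 0.59). Over 12 dendritic cell genes the median was 0.10, with Xcr1 at 0.78 (SE 0.54) and Cd209a at 0.62 (SE 0.42). Class II presentation genes had a median of 0.12 over 9, with the regulator Ciita at 0.29 (SE 0.26) and H2-Ob at 0.66 (SE 0.43). The median of 16 neutrophil genes was -0.09, with the granule genes Mmp8 at -0.81 (SE 0.51) and Ngp at -0.75 (SE 0.62). Mast cell genes had a median of -0.06 over 12, with the chymase genes Cma1 and Mcpt4 at -0.22 (SE 0.15) and -0.27 (SE 0.18). Red cell genes, which follow blood left in the tissue, had a median of 0.08 over 9, with the band 3 anion exchanger gene Slc4a1 at 0.46 (SE 0.43) and Bpgm at -0.12 (SE 0.14).

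Tumour and epithelial genes gave 0 of 24 with a median of -0.10, or 0.06 without the low GC libraries. The luminal factor gene Foxa1 came nearest on the lower side, with 0.341, 1.08 and 2.23 CPM against 0.348, 2.13 and 3.44 CPM; 1 of 10 muscle-positive tumours exceeded the muscle-negative median (-0.83, SE 0.37, unadjusted p = 0.0353). The prolactin receptor gene Prlr differed by -0.61 (SE 0.48) and the keratin gene Krt8 by -0.18 (SE 0.58). The milk genes Glycam1 and Btn1a1 differed by -0.74 (SE 0.37) and -0.56 (SE 0.40), and the skin genes Krt16 and Calml3 by -0.56 (SE 0.30) and -0.30 (SE 0.35), without passing. Of 30 proliferation genes 27 had intervals within a doubling or halving and the median was -0.02, with the kinesin gene Kif20a at -0.15 (SE 0.11) and the replication gene Mcm3 at -0.13 (SE 0.13). All 22 hypoxia and glycolysis genes lay below 0, as did 7040 of all 15629 genes tested. The median of the 22 was -0.11, with Pfkp at -0.15 (SE 0.14) and Adm at -0.22 (SE 0.23), and without the low GC libraries that median was 0.06. Immediate early genes, which respond to handling, had a median of -0.06 over 17, with Fos at -0.46 (SE 0.37) and Dusp1 at -0.29 (SE 0.23). The salivary genes Amy1, at 4.66 (SE 2.06), and Klk1, at -1.67 (SE 1.01), each rested on 1 tumour, DMSO 1_5 with 1575 CPM and 27HC 2_2 with 215 CPM.

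Outside the muscle lists 16 genes were lower at an unadjusted p under 0.05, none of which passed. Among genes in no list whose mean level was 1 log2 CPM or above, the 5 lower genes with the smallest p, each with an adjusted p of 1, were the collagen gene Col8a2 (-0.50, SE 0.20), Fmo5 (-0.38, SE 0.14), the protocadherin gene Pcdhb12 (-0.48, SE 0.23), the retinol dehydrogenase gene Rdh5 (-0.23, SE 0.12) and the transcription factor gene Sox5 (-0.46, SE 0.22). Rdh5, with an unadjusted edgeR p of 0.0590, is not among the 16. Fmo5 lay below the muscle-negative median in all 10 muscle-positive tumours, at 2.54 to 4.12 CPM against 3.19 to 5.82 CPM. Over the 426 genes of the other lists alone, 302 had intervals within a doubling or halving, as did 12841 of 15629 genes over the whole table. The count of 84 was 24 with the first title number as a further covariate and 0 with both title numbers as a replicate block. It was 17 in DMSO tumours alone and 0 in 27HC tumours alone.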

How the data were processed

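RNA from 19 frozen Met1 tumours was sequenced as stranded poly(A) libraries, per the labels' protocols. The authors deposited a table of expected counts, estimated counts per gene that need not be whole, for 26796 genes. Build GRCm38 and, without their roles, the tools limma, edgeR and kallisto 0.44.0 are listed per the submitters' processing notes. Symbols and coordinates were matched for 26290 genes. Column totals of 28139419 to 41179056 set the precision.

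Tumours were divided at Acta1 of 20 CPM of the column total. Expected counts were rounded, genes kept by edgeR's filterByExpr (15629 tested), scaled by TMM and tested with edgeR 4.0.16 (R 4.3.3; quasi-likelihood test, treatment as covariate, all 19 tumours, Benjamini-Hochberg adjustment), after a test on simulated data. Alternatives with DESeq2 1.42.0 and limma 3.58.1, other filters, limits and covariates are in the closing section. The members and gene lists were chosen with earlier results of these data known. Genes named were the markers, up to 6 members of each muscle list with the largest fold change, the 2 members of each other list with the smallest p where none passed, and the 15 largest of the genes in no list (mean level 1 log2 CPM or above) or, where none passed, the 5 with the smallest p. Genes named beyond this rule, such as the adult myosins, slow troponins, Neb, Trdn, Pecam1, Adipoq, Krt8 and low called genes, were chosen after their values were seen. Results for 1 gene are not reported here.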

Additional observations from a re-analysis of the deposited data

Results flagged for a closer look

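Single genes, on log2(CPM + 0.5), and column totals, library GC content, muscle list share and genes detected were examined in 242 groups of 9 or 10 tumours. Of these groups, 17 held a tumour set apart from the rest by Dixon's criterion, which chance alone meets in about 1 of 20 groups. Among the muscle-negative tumours, 27HC 2_2, whose Acta1 of 14.0 CPM lies nearest the limit, stood highest for Art1 (0.168 CPM), Hrc (0.664 CPM), Ano5 (0.0532 CPM), Ndrg2 (6.11 CPM) and the salivary kallikrein gene Klk1 (214.5 CPM). In the same group DMSO 2_4 stood highest for Myot (0.177 CPM) and 27HC 1_1 for Ckmt2 (0.0682 CPM). DMSO 1_3 stood highest there for the granule protease gene Mmp8 (10.8 CPM) and for Ndufa5 (18.6 CPM), and DMSO 2_1 for Fos (64.2 CPM). The library GC content of DMSO 2_3 was the lowest of that group at 49.2%.

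Among the muscle-positive tumours, DMSO 1_5 had the salivary amylase gene Amy1 at 1575 CPM, against 2.31 CPM in the next tumour. In this group 27HC 1_5 stood highest for Ndufa1 (54.5 CPM) and Ndufa5 (32.3 CPM), 27HC 1_3 for Col14a1 (48.0 CPM) and DMSO 1_4 for Adm (4.81 CPM). DMSO 1_2 had the lowest mt-Nd5, at 614.8 CPM, against 2286 CPM in the next tumour.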

How the results depend on the processing

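Beside 84 genes higher, 35 of them outside the muscle lists, and 0 members of the other lists, a floor of 1 log2 CPM gave 31 higher and 6 outside the lists, and fewer genes were tested there. No filter gave 61 outside the lists, 1 member of the other lists (Mustn1) and 2 genes lower, both outside the lists, 1 of them Mucl1; 126 genes were higher. DESeq2 gave 61 outside the lists and 2 members, and limma-voom gave 45 higher and 19 outside. The first title number as covariate gave 24 and 10. Acta1 as a continuous term gave 132, 74 and 3 members (Mustn1, Smoc2 and Synpo2), and an Acta1 limit of 50 CPM gave 2 members (Mustn1 and Smoc2). A fit with no treatment covariate, one with library GC content, a Ckm limit of 20 CPM, and leaving out the 5 low GC libraries (chosen after seeing the data, as were fits without the 4 tumours nearest the limit) each gave 1 member of the other lists. DMSO tumours alone gave 17 and 3, and 27HC tumours alone gave 0 and 0, with 846 genes at an unadjusted p under 0.05 and a smallest adjusted p of 0.132. The cause of these changes was not tested. Leaving out each tumour in turn gave 64 to 93 higher, 21 to 41 outside the lists, 0 to 0 lower and 0 to 1 other members.

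With the title numbers as a replicate block, 0 genes passed and 0 outside the lists. There 157 had an unadjusted p under 0.05, the smallest adjusted p was 0.308, and all 84 kept a value above 0. Whether the numbers pair the samples cannot be told from these values. Deviations correlated over 0.1 in 5 of 9 same-numbered pairs (-0.317 to 0.844), and pairs with unlike numbers were not compared.

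Log2 values changed sign for 38 of the 118 genes followed, and every such value had an adjusted p of at least 0.633. With voom quality weights they were Prph 0.12, Adgre1 -0.25, Amy1 -0.21, Mcm3 0.04581, Ccr2 -0.24, Eomes -0.0923, Tnni3 -0.42 and Xcr1 -0.14. With no treatment covariate the value was Adipoq 0.13; with the first title number, Tubb3 -0.03972 and mt-Nd4l -0.06158. With the replicate block they were Slc4a1 -0.55, Adm 0.10, Ndufa1 -0.003569, Ccr2 -0.04872, mt-Nd4l -0.04284, Ndufa5 -0.03754 and Tnni3 -0.006243; with library GC content, Ms4a1 -0.01357, Ccr2 -0.07767, Tnni3 -0.13 and Xcr1 -0.0003672. An Acta1 limit of 10 CPM gave Adipoq 0.39, Krt8 0.32, Klk1 1.92 and Adm 0.07403, and one of 50 CPM Mag -0.02224, Amy1 -1.68 and Tnni3 -0.25. A Ckm limit gave Amy1 -2.50 and Tnni3 -0.30. DMSO tumours alone gave Myl4 -0.08836, Adipoq 1.08, Cilp -0.01523, Col14a1 -0.02926, Cd3e -0.008068, Ms4a1 -0.29, Mcpt4 0.28, Krt8 0.98, Klk1 0.80, Adm 0.18, Ndufa1 -0.09009, mt-Nd5 -0.18, Calml3 0.27, Ccr2 -0.12, Chrnb1 -0.18, Eomes -0.13, mt-Nd4l -0.15, Ncam1 -0.02194 and Ndufa5 -0.18. 27HC tumours alone gave Mmp8 0.009892, Kif20a 0.03171 and Fos 0.02804. Without the low GC libraries they were Ccl21a -0.64, Adipoq 0.05425, Cd3e -0.04381, Ifng -0.02485, Adgre1 -0.27, Jchain -0.39, Ms4a1 -0.26, H2-Ob -0.04835, Irgm1 -0.06868, Gbp3 -0.04092, Krt8 0.30, Amy1 -0.65, Bpgm 0.0006984, Ccr2 -0.65, Chrnb1 -0.09472, Eomes -0.28, Ndufa5 -0.05461, Tnni3 -0.49 and Xcr1 -0.53. Without the 4 tumours nearest the limit they were Klk1 0.04121, Amy1 -0.03451 and Tnni3 -0.17. Over fits leaving out 1 tumour, the ranges that crossed 0 were Adipoq -0.45 to 0.11, Cd3e -0.03023 to 0.20, Fos -0.58 to 0.04314, Klk1 -2.36 to 0.57, Krt8 -0.62 to 0.08704, Ncam1 -0.04628 to 0.09997, Prph -0.38 to 0.02327, Tnni3 -0.14 to 0.60.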
